A study of Mus musculus with 12 samples.

Results

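H3K9me2 in the prefrontal cortex of FAD mice treated with BIX01294 was compared with that of FAD mice, with the reads of the called regions summed per gene and per 1 Mb stretch of the autosomes. Of the 12 libraries of the study, 8 belong to this comparison. They come from 2 mice labelled as BIX01294-treated FAD (FAD-BIX) and 2 labelled as FAD, a model of familial Alzheimer's disease, with a ChIP and an input library from every mouse, which the labels give as separate animals. All were C57BL/6 mice of 5 to 6 months. The dose and length of the BIX01294 treatment, the vehicle, and the alleles that the FAD mice carry are not given in the sources used here. The joint table of both groups holds 43680 regions. A gene was assigned to 16537 of them (37.9%), 9527 by overlap and 7010 as the nearest named gene, which gave 4850 genes. The autosomal bins of 1 Mb number 2301 and hold 43268 of the regions.

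H3K9me2, dimethylated lysine 9 of histone H3, marks silent chromatin and lies in broad domains over gene-poor stretches and over genes that a cell type keeps off. EHMT1 (GLP) and EHMT2 (G9a) work as a pair to place the mark in euchromatin, and proteins with chromodomains such as the HP1 family and CDYL bind it. BIX01294 inhibits both enzymes at their substrate site. In the brain EHMT1 and EHMT2 are known for silencing genes foreign to neurons and for effects on synaptic genes, and the study concerns their inhibition in Alzheimer's disease.

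The 4 ChIP libraries held 20.45 to 24.94 M reads and the inputs 13.92 to 15.09 M. The regions took 2.96% and 2.81% of the FAD-BIX ChIP reads, against 2.55% and 4.23% of the FAD ChIP reads. A gene drew a median of 18 and 19 reads in the FAD-BIX ChIP libraries and of 19 and 28 in the FAD ChIP libraries, and a bin 195 and 204 against 207 and 295. Regions were called in each library separately, 93.4% of them in 1 library only. The FAD-BIX libraries called 9753 and 11347 regions, the library labelled FAD ChIP 1 called 3904 and FAD ChIP 2 called 21930. The libraries labelled FAD 1 stand apart from FAD 2 in other ways, namely at Thy1 and at some heart muscle genes. Results are therefore given with and without them. Whether that label fits the animal or the tissue was not tested, and every FAD value that includes FAD 1 carries this limit. Since FAD ChIP 2 holds more reads in the regions per read sequenced, the scaling matters. TMM (trimmed mean of M values) centres the typical gene on no change, while library totals keep differences in the overall share of reads. Relative to the library totals, TMM assigned sizes of 0.9153 and 0.8952 to the FAD-BIX libraries, against 0.8044 and 1.429 for FAD. Neither scaling can show a change of the mark over the whole genome that leaves all reads in proportion, and in this bulk tissue fewer marked cells and less mark per cell cannot be told apart.

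No gene passed the test with TMM. Among 4044 genes tested with edgeR's quasi-likelihood test, 0% were called in either direction at a Benjamini-Hochberg adjusted p under 0.05, and the smallest adjusted p was 0.871. At an unadjusted p under 0.05, 116 genes were higher (2.87%) and 74 lower (1.83%) in FAD-BIX, and DESeq2 also called 0. The median log2 fold was 0.00. With library totals 4 of 4048 genes fell in FAD-BIX (0.0988%) and 0% rose, and the median log2 fold was -0.28. The unadjusted counts were 5 genes higher (0.124%) and 44 lower (1.09%). Both FAD-BIX libraries lay above both FAD libraries in 17.2% of the genes and below them in 18.1%, after TMM. With 2 mice per group the smallest two-sided p of an exact permutation test is 0.333, so the calls rest on spread shared across genes. The fit with library totals took the spread of each gene wholly from the trend over all genes, whereas the TMM fit weighted that trend by 16.1 prior degrees of freedom.

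**Figure D1:**
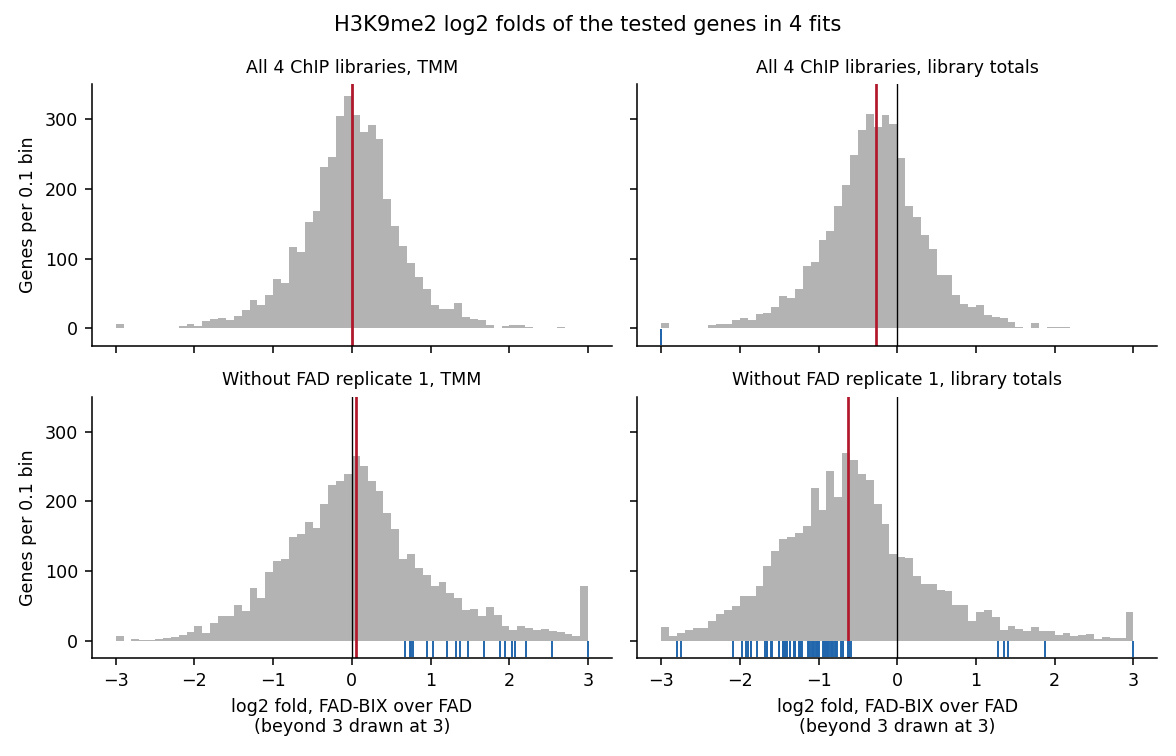
Number of genes (y axis, per 0.1 step) by log2 fold of FAD-BIX over FAD ChIP (x axis) in 4 fits. The red line is the median, the black line 0, blue ticks mark genes with an adjusted p under 0.05, and folds beyond 3 are drawn at 3. The median lies at 0.00 with TMM and at -0.28 with library totals, and without FAD replicate 1 at 0.05 with TMM and -0.62 with library totals.

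Without the library labelled FAD ChIP 1, the calls turned on the scaling. With TMM, 18 of 4744 genes rose in FAD-BIX (0.379%) and 0% fell. With library totals, 5 of 4768 rose (0.105%) and 73 fell (1.53%), at a median log2 fold of -0.62. The 5 that rose with library totals were all among the 18 that rose with TMM, while TMM called 0 genes lower. These fits set both FAD-BIX mice against the single mouse FAD 2, which is assumed to vary like the FAD-BIX mice. After TMM of all 4 libraries, the groups stood apart for 6 of the 18 genes and for 42 of the 73, beside 17.2% and 18.1% of all genes. These genes were chosen on 3 of the 4 libraries, so nothing is read from those counts. In RPM, the reads of a gene per 1 M reads of the library, FAD ChIP 1 exceeded FAD ChIP 2 for 13 of the 18, and FAD ChIP 2 exceeded FAD ChIP 1 for each of the 73.

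The 4 genes that fell with library totals were Mb, Myh6, Actc1 and Lpl, all of them strongly expressed in heart muscle. Mb encodes myoglobin, the oxygen store of heart and red skeletal muscle. Its 2 regions, in an exon and the 3' UTR, held 0.342 and 0.364 RPM in FAD-BIX ChIP, against 14.2 in the library labelled FAD ChIP 1 and 0.577 in FAD ChIP 2. The log2 fold was -4.37 ± 0.66 (SE, edgeR with library totals, adjusted p = 1.259e-07), and the filter on low counts left Mb out of the TMM fit. Myh6, the fast cardiac myosin heavy chain, had 1.37 and 1.05 RPM in FAD-BIX ChIP and 22.5 and 2.21 RPM in FAD ChIP. Its log2 fold was -3.36 ± 0.55 with library totals (edgeR, adjusted p = 1.596e-06) and -3.45 ± 0.76 with TMM (edgeR, adjusted p = 0.871). TMM without the filter on low counts did call Myh6, Mb, Actc1 and Lpl lower (edgeR, adjusted p = 4.927e-10, 4.927e-10, 7.197e-09 and 2.922e-06). Actc1, cardiac alpha-actin, had 1.71 and 0.818 RPM in FAD-BIX ChIP and 18.9 and 2.21 RPM in FAD ChIP. Lpl, lipoprotein lipase, which also serves fat tissue and brain, had 0.538 and 0.636 RPM in FAD-BIX ChIP and 9.38 and 0.577 RPM in FAD ChIP. For each of these genes FAD ChIP 1 alone was high. FAD ChIP 2 lay slightly above both FAD-BIX libraries for Mb, Myh6 and Actc1 and between them for Lpl. Without FAD ChIP 1, the log2 folds with library totals were -0.70 for Mb, -0.87 for Myh6, -0.81 for Actc1 and 0.03 for Lpl, and none was called (edgeR, adjusted p = 0.438 for Myh6, higher for the others).

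The input of FAD 1 did not share the excess. For Myh6 the inputs held 2.18 and 0.862 RPM in FAD-BIX and 1.46 and 2.78 RPM in FAD, and for Mb 0.884 and 0.144 RPM against 0.557 and 1.39 RPM. Every region of Mb, Myh6, Actc1 and Lpl was called in FAD ChIP 1 alone. Of 41 heart muscle genes listed, 11 had a region and 7 were tested with TMM, where none passed and 4 were lower at an unadjusted p under 0.05, beside 1.83% of all genes. Summed over the 7, the list held 21.6 and 21.6 RPM in FAD-BIX ChIP, 72.8 in FAD ChIP 1 and 31.4 in FAD ChIP 2. The list was chosen with such genes in FAD ChIP 1 already known, so its direction is no independent evidence. Ryr2, a calcium release channel of heart and brain, and Ttn, the giant sarcomere protein, had more regions (16 and 15) and less contrast. Ttn held 6.6 and 8.27 RPM in FAD-BIX ChIP and 12.8 and 9.66 RPM in FAD ChIP, and Ryr2 10.1 and 8.87 RPM against 7.22 and 14.5 RPM. The listed genes Ankrd1, Nkx2-5 and Tbx20, with 1 region each, had 8, 13 and 10 reads in FAD ChIP 1. FAD ChIP 2 held more, with 22, 19 and 18 reads. Nkx2-5 had 19 and 36 reads in FAD-BIX ChIP. Like Ryr2, these genes were not high in FAD ChIP 1. What part another tissue has in these reads was not tested.

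The natriuretic peptide genes Nppb and Nppa, neighbours on chromosome 4, have regions at their starts, and their promoters are printed because a region covers or adjoins each. Nppb encodes brain natriuretic peptide and Nppa atrial natriuretic peptide, both made mainly by heart muscle cells. The Nppb region spans chr4:147985704-147986374 (GRCm38) and covers 196 of the 250 bases before its start, at chr4:147985650-147985899. The Nppa region, chr4:148000770-148001379, begins after the 250 bases before its start, chr4:148000472-148000721. The sequences are RefSeq's (GRCm38.p6), plus strand, with capitals for the TATA box TATAAA and for AGATAA, a match for the GATA element, searched on both strands.
Nppb: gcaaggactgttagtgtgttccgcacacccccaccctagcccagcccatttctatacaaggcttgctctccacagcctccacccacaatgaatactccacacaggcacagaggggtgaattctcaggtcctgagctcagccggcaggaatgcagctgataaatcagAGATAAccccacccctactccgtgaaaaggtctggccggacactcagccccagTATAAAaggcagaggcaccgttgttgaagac
Nppa: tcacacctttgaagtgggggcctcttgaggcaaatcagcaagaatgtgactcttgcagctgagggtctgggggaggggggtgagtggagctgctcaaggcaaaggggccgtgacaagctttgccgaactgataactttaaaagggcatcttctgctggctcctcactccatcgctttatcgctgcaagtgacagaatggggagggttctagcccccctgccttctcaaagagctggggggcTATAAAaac
TATAAA occurs in 12.4% and AGATAA in 9.99% of 32851 promoters of this length. Nppb holds both, and of these strings Nppa holds TATAAA alone. TATAAA begins at -31 from the start in Nppb and at -9 in Nppa, and whether it serves as a TATA box was not tested. Other forms of the GATA element were not searched or marked, and both printed sequences hold such a form, tgataa. The lack of AGATAA in Nppa is therefore no lack of the element. The motifs do not overlap, and a match does not show that a factor binds. Nppb held 0.391 and 0.273 RPM in FAD-BIX ChIP and 1.6 and 1.3 RPM in FAD ChIP, so that both FAD libraries were high, and its region was called in both. Its log2 fold of -1.95 ± 0.67 (TMM) did not pass (edgeR, adjusted p = 0.871) and was -1.29 without FAD ChIP 1. Nppa held 0.0489 and 0.0909 RPM in FAD-BIX ChIP, 6.42 in FAD ChIP 1 and 0.192 in FAD ChIP 2, so that FAD ChIP 1 alone was high, and the filter on low counts left it out. Few promoters lie in the data at all, since 185 of the 43680 regions (0.424%) overlap the window of 250 bases before to 50 after a gene start.

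**Figure D2:**
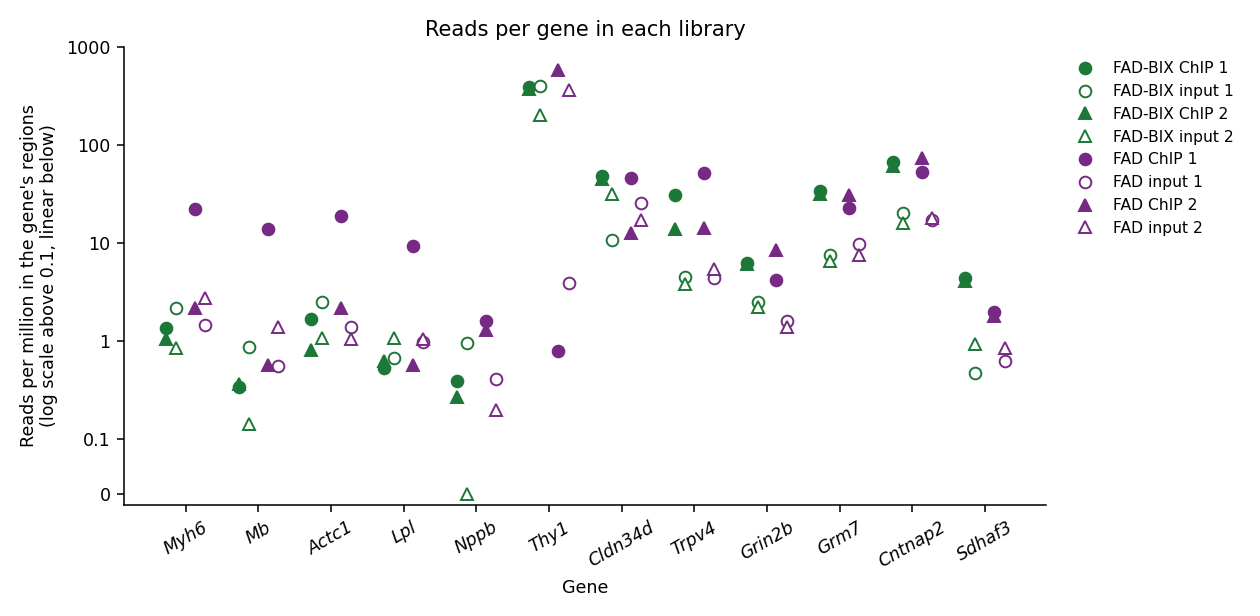
RPM in the regions of 12 genes (y axis, log scale above 0.1 and linear below) in each FAD-BIX (green, left) and FAD (purple, right) library, with filled symbols for ChIP, open ones for input, circles for replicate 1 and triangles for replicate 2. FAD ChIP 1 lies far above the others at Myh6, Mb, Actc1 and Lpl, and far below them at Thy1.

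Thy1 encodes a surface glycoprotein of neurons whose promoter drives many brain transgenes. Its 3 regions, between chr9:44042064 and chr9:44049759 (GRCm38), held the most ChIP reads among genes on chromosomes with an established symbol, and the middle one lies in its first intron. They held 395.4 and 376.4 RPM in FAD-BIX ChIP, 0.802 in the library labelled FAD ChIP 1 and 590.5 in FAD ChIP 2. The inputs of the same mice held 403.2 and 203.0 RPM in FAD-BIX, 3.97 in FAD 1 and 365.6 in FAD 2. The libraries labelled FAD 1 thus lacked, in ChIP and input alike, the excess that the other 3 mice share. The group means, which include FAD 1, were 385.9 ± 13.4 RPM in FAD-BIX and 295.6 ± 417.0 RPM in FAD (SD, n = 2). The log2 fold was 1.04 ± 1.03 with all 4 libraries and TMM (edgeR, adjusted p = 0.936) and 0.05 without FAD ChIP 1. With library totals and without FAD ChIP 1, Thy1 fell by 0.61 on the log2 scale (edgeR, adjusted p = 1.065e-14), close to the median fold of all genes in that fit.

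Genes whose groups stood apart after TMM were ranked by p. The 8 with the smallest p that were higher in FAD-BIX were Sdhaf3, Kif18a, Dsg1c, Pcsk5, Ppfia2, Tmprss11e, Cpe and Ccdc83. None of them passed in the main TMM fit. Sdhaf3, an assembly factor of mitochondrial complex II, held 4.45 and 4.09 RPM in FAD-BIX ChIP and 2.01 and 1.83 RPM in FAD ChIP. Its 6 regions on chromosome 6 gave a log2 fold of 1.35 ± 0.34 (TMM). Without FAD ChIP 1 the fold was 1.89 with TMM and 1.22 with library totals. Sdhaf3 was called higher in the former, against the single mouse FAD 2, and not in the latter. With all 4 libraries, TMM and a replicate block also called it higher (edgeR, adjusted p = 0.0363). Each of these regions was called in a FAD-BIX library alone, so the fold is not independent of the calling. Only 2 of the 6 overlap the gene. Kif18a, a mitotic kinesin, held 1.71 and 2.27 RPM against 0.682 and 0.529 RPM. Its 2 regions lie outside the gene, and each was called in a FAD-BIX library alone. Cpe, carboxypeptidase E of the neuropeptide pathway, held 1.27 and 2.05 RPM in FAD-BIX ChIP and 0.602 and 0.577 RPM in FAD ChIP. Ppfia2, a liprin of the presynaptic active zone, held 8.56 and 8.55 RPM in FAD-BIX ChIP against 5.05 and 7.07 RPM in FAD ChIP, a log2 fold of 0.76 ± 0.24. For the other 4, a desmosomal cadherin (Dsg1c), a proprotein convertase (Pcsk5), a serine protease (Tmprss11e) and Ccdc83, the log2 folds were 1.28, 0.79, 1.16 and 1.64 with TMM. When FAD ChIP 1 was left out, those of Kif18a, Cpe and Ppfia2 were 2.56, 2.18 and 0.94, and those of the other 4 were 1.06, 0.84, 0.87 and 2.56, and none passed.

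By the same rule the 8 genes that were lower in FAD-BIX were Myh6, Adcy10, Trpv3, Zfp42, Cyp26a1, Ccl6, Lmntd2 and Nppb, and with TMM none passed. Adcy10, the soluble adenylyl cyclase, held 0.489 and 0.409 RPM in FAD-BIX ChIP and 1.52 and 2.45 RPM in FAD ChIP. Zfp42 (REX1), a zinc-finger gene of pluripotent cells that most adult tissues keep silent, held 1.56 and 1.5 RPM in FAD-BIX ChIP and 2.49 and 5.58 RPM in FAD ChIP. Its log2 fold was -1.05 ± 0.34 with TMM, and with library totals and without FAD ChIP 1 it fell by 1.86 (edgeR, adjusted p = 0.00528). Cyp26a1, which clears retinoic acid, held 0.342 and 0.409 RPM in FAD-BIX ChIP and 0.922 and 2.64 RPM in FAD ChIP, and fell by 2.79 in the same fit (edgeR, adjusted p = 0.021). Trpv3, a warmth channel of skin, Ccl6, a chemokine, and Lmntd2 each rest on 1 region with at most 3 reads in a FAD-BIX ChIP library, and their log2 folds (-4.25, -3.40 and -2.89 with TMM) depend on the prior count. No region of Zfp42, Cyp26a1, Trpv3, Ccl6 or Lmntd2 overlaps the gene, which was assigned as the nearest. The rule chose genes whose FAD ChIP libraries both lay above both FAD-BIX libraries after TMM, so that order is no separate result. The TMM log2 fold of Adcy10 without FAD ChIP 1 was -1.78, that of Zfp42 -1.20 and that of Cyp26a1 -2.13, and none passed with TMM.

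Genes that rose without FAD ChIP 1 were often high in FAD ChIP 1 itself. Cldn34d, a claudin on the X chromosome, held 48.9 and 45.5 RPM in FAD-BIX ChIP, 46.9 in FAD ChIP 1 and 12.8 in FAD ChIP 2, with 10.95 and 31.7 RPM in the FAD-BIX inputs and 25.6 and 17.5 RPM in the FAD inputs. Its log2 fold was 2.54 without FAD ChIP 1 (TMM, edgeR, adjusted p = 1.206e-33), against a single FAD library. Dock2, a guanine exchange factor of blood cells, held 11.4 and 15.5 RPM in FAD-BIX ChIP and 17.1 and 5.53 RPM in FAD ChIP. Its input was high for FAD-BIX 2 (10.4 RPM) and FAD 1 (9.82), and low for FAD-BIX 1 (3.74) and FAD 2 (3.11). In ChIP, FAD-BIX 1 instead lay between FAD 2 and FAD-BIX 2. Its ratio of ChIP to input was 3.05, against 1.489 for FAD-BIX 2, 1.743 for FAD 1 and 1.775 for FAD 2. FAD ChIP 2 was lowest in the regions starting at chr11:34544809 and chr11:34681763, with 18 and 15 reads. It was highest in those starting at chr11:34386832, chr11:34474290 and chr11:34717620, with 17, 27 and 26 reads, and neither in the rest. The part of the input in these calls was not tested. Btbd35f6, on the X chromosome, was high for FAD-BIX 2 and FAD 1 in ChIP and input alike. Its ChIP reads were 466 and 559 for these mice, against 136 for FAD-BIX 1 and 109 for FAD 2. Its input reads were 177 and 138, against 24 and 37. Copies of this multigene family share reads, and its counts are uncertain. Trpv4, an osmosensitive channel, differed between mice of the same group. It held 31.5 and 13.96 RPM in FAD-BIX ChIP and 52.5 and 14.3 RPM in FAD ChIP, but 3.88 to 5.43 RPM in the 4 inputs. Cldn34d, Dock2, Btbd35f6 and Trpv4 were picked after their values were seen.

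Leaving out predicted genes and unplaced contigs, the 5 genes with the most ChIP reads were Thy1, Sfi1, a centrosomal gene with many near copies in the mouse genome, Cntnap2, Kctd16 and Aida. AC149090.1, on an unplaced contig, held more reads than any of them, with 19787 and 19583 in FAD-BIX ChIP and 22352 and 31101 in FAD ChIP. Sfi1 held 226.7 and 206.8 RPM in FAD-BIX ChIP and 203.1 and 326.2 RPM in FAD ChIP, with 176.5 and 128.7 RPM in the FAD-BIX inputs and 125.2 and 164.3 RPM in the FAD inputs. Kctd16, an auxiliary subunit of GABA-B receptors, held 49.1 and 42.4 RPM in FAD-BIX ChIP against 56.7 and 84.2 RPM in FAD ChIP, and Aida 41.4 and 32.8 RPM against 54.8 and 71.0 RPM. For both genes the FAD-BIX libraries lay below both FAD libraries, at log2 folds of -0.36 ± 0.20 and -0.52 ± 0.21 (TMM), without passing. With library totals and without FAD ChIP 1 both fell, as did Sfi1 (edgeR, adjusted p = 1.372e-06, 1.372e-06 and 2.645e-08), at log2 folds of -0.88, -0.94 and -0.59 beside a median of -0.62 over all genes.

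Of the glutamate receptor genes, Grm7 alone was called, and only in the TMM fit without FAD ChIP 1. Ionotropic receptor genes had regions in 10 of 18 members, 7 of them with a TMM log2 fold above 0, beside 2015 of 4044 genes in all. Their median was 0.10 beside 0.00 over all genes, and 0.14 beside 0.02 without FAD ChIP 1. Gria1, an AMPA receptor subunit, held 8.9 and 9.05 RPM in FAD-BIX ChIP and 7.46 and 11.6 RPM in FAD ChIP. Grin2a and Grin2b encode the NMDA receptor subunits that set its kinetics. Grin2a held 10.1 and 12.2 RPM against 9.3 and 16.5 RPM, and Grin2b 6.36 and 6.14 RPM against 4.25 and 8.65 RPM. Of the regions summed, 7 of 13 overlap Gria1, 12 of 19 Grin2a and 9 of 11 Grin2b, and the rest were assigned as nearest. In RPM the FAD-BIX libraries lay between the FAD libraries in each of the 3 genes. After TMM the log2 folds were 0.19 ± 0.22, 0.09 ± 0.22 and 0.28 ± 0.24, and with library totals -0.08, -0.21 and -0.04, so their sign depends on the scaling, and none passed in either. Gria2, another AMPA receptor subunit, had no region. Of the metabotropic receptor genes, 5 of 8 had a region. Grm7, a presynaptic receptor that damps release, had 46 regions and held 34.5 and 32.3 RPM in FAD-BIX ChIP and 23.2 and 30.9 RPM in FAD ChIP. It had a log2 fold of 0.55 ± 0.21 with TMM, and without FAD ChIP 1 it rose by 0.78 with TMM (edgeR, adjusted p = 0.013), while its fold was 0.11 with library totals.

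No cell adhesion or channel gene of the lists passed with all 4 libraries. All 11 contactin family genes with a region had a TMM log2 fold above 0, from 0.06 to 1.25, at a median of 0.19, or 0.28 without FAD ChIP 1, beside 0.02 over all genes. The median was -0.14 with library totals, beside -0.29 over all genes tested with TMM. Potassium channel genes lay above 0 in 10 and below in 9 cases, sodium and calcium channel genes in 8 and 6, and nonclustered protocadherins in 4 and 3. Over all genes tested 2015 of 4044 lay above 0, and over those with 10 or more regions 72.8%. Cntnap2, a neurexin-like protein, had the most regions (96) and held 67.9 and 61.7 RPM in FAD-BIX ChIP and 53.3 and 73.5 RPM in FAD ChIP. Of 16 postsynaptic scaffold and adhesion genes, 12 lay above 0. Nlgn1 and Nrxn3, with 20 and 57 regions, were called higher with TMM and without FAD ChIP 1, at log2 folds of 0.95 and 0.75. Genes with 10 or more regions had a median of 0.21 in that fit. With library totals and without FAD ChIP 1 their log2 folds were 0.29 and 0.09, and neither passed (edgeR, adjusted p = 0.506 and 0.794). Nlgn1, a postsynaptic neuroligin, held 17.5 and 13.1 RPM in FAD-BIX ChIP and 11.4 and 12.5 RPM in FAD ChIP. Nrxn3, a presynaptic neurexin, held 35.5 and 34.1 RPM against 31.6 and 32.8 RPM. Nalcn, the sodium leak channel, was the 1 of 14 sodium and calcium channel genes to rise without FAD ChIP 1 (TMM, edgeR, adjusted p = 0.00483), with 7.63 and 3.86 RPM in FAD-BIX ChIP and 3.45 and 2.84 RPM in FAD ChIP. It did not pass with library totals and without FAD ChIP 1 (edgeR, adjusted p = 0.141). Its FAD-BIX libraries differed from each other by more than the lower of them did from FAD ChIP 1.

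Other list members with a small unadjusted p did not pass with TMM. They included Gabra2, a GABA-A receptor subunit, with a log2 fold of 0.70 ± 0.24, the type II cadherin Cdh7 with 0.71 ± 0.25, and the protocadherin Pcdh9 with 0.65 ± 0.21. The vesicle calcium sensor Syt1 had 0.75 ± 0.25 and the guidance cue Sema3a 0.78 ± 0.32. Of the regions assigned to them, 4 of 13 overlap Gabra2, 6 of 9 Cdh7, 12 of 21 Pcdh9, 8 of 11 Syt1 and 1 of 7 Sema3a. These 5 stood, without FAD ChIP 1, at 0.92, 0.75, 0.79, 0.71 and 0.65 with TMM, and none passed. Among voltage-gated potassium channel genes, Kcnq1, a channel of heart and ear, was lower at -1.09 ± 0.41, and it fell by 1.97 with library totals and without FAD ChIP 1 (edgeR, adjusted p = 0.0204). Counts at an unadjusted p under 0.05 were 2 higher of 14 GABA receptor genes, 2 higher of 9 type II cadherins, 2 higher of 16 presynaptic genes, 2 higher of 25 axon guidance genes, and 1 higher and 1 lower of 19 potassium channels. Over all genes these shares were 2.87% and 1.83%. In the fit with library totals and without FAD ChIP 1, the type II cadherin Cdh9 and the axon guidance gene Plxna4 also fell. Their log2 folds in that fit were -0.6943 and -1.001, beside a median of -0.6203 over all genes. With TMM and without FAD ChIP 1 the folds of Cdh9 and Plxna4 were -0.02959 and -0.3363. Of 6 IgLON and NCAM adhesion genes 6 lay above 0, beside 2015 of 4044 genes in all, with 0 at an unadjusted p under 0.05. Clustered protocadherins and 15 housekeeping genes had no region at all. Marker genes of cortical cells had few. Those tested were 12 of 25 for cortical neurons, 4 of 15 for astrocytes, 4 of 18 for oligodendrocytes, 1 of 19 for microglia and 5 of 15 for endothelium, of which 1 neuron marker was higher at an unadjusted p under 0.05. A histone mark does not measure their RNA, so the tissue could not be checked from them.

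Genes of the H3K9 methylation machinery held few reads. Of 33 listed, 11 had a region, 4 with a TMM fold above 0 and 7 below, and none had an unadjusted p under 0.05. Ehmt1 held 1.17 and 0.545 RPM in FAD-BIX ChIP and 0.882 and 1.2 RPM in FAD ChIP, at a log2 fold of -0.03 ± 0.60, and Ehmt2 had no region. Cdyl, a reader of the mark, held 0.391 and 1.14 RPM against 1.04 and 2.45 RPM, a log2 fold of -0.83 ± 0.56. Of 28 Alzheimer's disease genes 6 had a region and 5 were tested, each with a TMM fold above 0, beside 2015 of 4044 genes in all. These 5 rest on 13 regions. Inpp5d, a phosphatase of microglia, had the smallest p, with 1.52 and 0.682 RPM in FAD-BIX ChIP and 0.2 and 0.769 RPM in FAD ChIP, a log2 fold of 1.56 ± 0.70. Bdnf, the neurotrophin, held 2.35 and 1.18 RPM against 0.882 and 1.44 RPM, a log2 fold of 0.88 ± 0.47. None of these differences passed (edgeR, adjusted p = 0.871 or more). With TMM and without FAD ChIP 1 the log2 folds were 0.17 for Ehmt1, 1.17 for Inpp5d and 0.95 for Bdnf, and neither these nor Cdyl passed.

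Large gene families, among them receptor families that neurons of the cortex keep silent, made up many of the genes. Among 414 olfactory receptor genes tested, the median TMM log2 fold was -0.06, and an unadjusted p under 0.05 was found for 15 that were higher and 7 that were lower, beside 2.87% and 1.83% of all genes. Olfr816 had 2.3 and 2.45 RPM in FAD-BIX ChIP and 1.12 and 1.49 RPM in FAD ChIP, a log2 fold of 1.12 ± 0.39. Of 92 vomeronasal receptor genes, 3 were higher and 1 lower by the same rule, at a median of -0.02, and of 83 zinc-finger genes 0 and 3. Vmn2r52 had 21 and 13 reads in FAD-BIX ChIP and 1 and 6 reads in FAD ChIP. The regions of Olfr816 and Vmn2r52 lie outside these genes. The medians were -0.04 for 83 zinc-finger genes, 0.04 for 65 solute carriers and -0.12 for 70 genes of the serpin, cytochrome P450 and glucuronosyltransferase families. Without FAD ChIP 1 they were -0.09 for olfactory and 0.06 for vomeronasal receptors, -0.08, 0.11 and -0.20 for the other families, and 0.02 over the same genes as a whole. These families share sequence between members, and reads from near copies cannot be told apart.

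The number of regions a gene has went with its fold. The median TMM log2 fold was -0.13 over 1625 genes with 1 region, 0.01 over 1580 with 2 to 4, 0.05 over 493 with 5 to 9, and 0.12 over 346 with 10 or more. Of the last group 72.8% lay above 0, and an unadjusted p under 0.05 was found for 18 that were higher and 1 that was lower. The order was the same with library totals, from -0.41 to -0.16, and without FAD ChIP 1. It did not hold without FAD ChIP 2 (-0.07, 0.04, 0.00 and 0.03) or without the regions called there alone (-0.10, 0.06, 0.04 and 0.05). Bins showed it too, with medians of -0.12 over 687 bins with 1 to 9 regions and 0.06 over 537 bins with 30 or more. The libraries that called the regions changed with it. Regions called in FAD ChIP 2 alone made up 54.3% of the regions in genes with 1 region and 39% in genes with 10 or more, and regions called in FAD-BIX ChIP 1 alone 11.8% and 22.2%. Over regions called in at least 2 libraries, the medians of the 4 classes were -0.05, -0.02, 0.02 and 0.00. How far the calling set the order was not tested beyond these values.

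**Figure D3:**
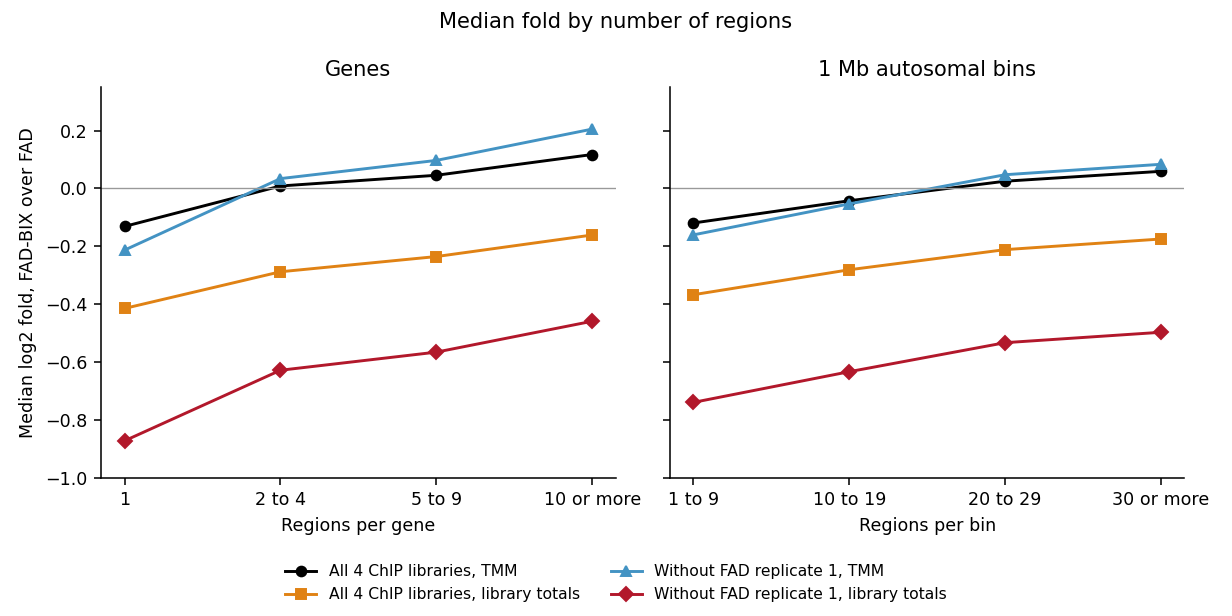
Median log2 fold of FAD-BIX over FAD ChIP (y axis) by the number of called regions in a gene (left) or a 1 Mb bin (right), in 4 fits. Each line climbs with the number of regions, and the lines for library totals lie below those for TMM.

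The signal in a set of regions depended on where the set was called. Regions called in FAD-BIX ChIP 1 alone held 2968 RPM per covered Mb in that library and 1240 in FAD-BIX ChIP 2, against 1260 and 1451 in the FAD ChIP libraries. Those called in FAD-BIX ChIP 2 alone held 2509 there and 1198 in FAD-BIX ChIP 1, against 1183 and 1362 in FAD ChIP. Those called in FAD ChIP 2 alone, 7.39 of the 16.2 covered Mb, held 1382 and 1272 RPM per Mb in the FAD-BIX ChIP libraries, 1328 in FAD ChIP 1 and 3222 in FAD ChIP 2. Regions called in FAD ChIP 1 alone held 1468 and 1401 RPM per Mb in FAD-BIX ChIP, 3203 in FAD ChIP 1 and 1790 in FAD ChIP 2. A set called in 1 library was thus highest in that library, and its input was the lowest of the 4 in the same mouse. Input over the set of FAD-BIX ChIP 2, for example, summed to 2164 and 498.6 RPM in FAD-BIX 1 and 2 and to 1869 and 1934 RPM in FAD. Over the set of FAD ChIP 2 it summed to 5991 and 4287 RPM in FAD-BIX and to 4566 and 3104 RPM in FAD. In the 2878 regions called in at least 2 libraries, FAD-BIX ChIP held 3286 and 3103 RPM per Mb and FAD ChIP 2922 and 4630. Over all regions, FAD-BIX ChIP held 1824 and 1734 RPM per Mb, against 1570 and 2608 for FAD ChIP, so that the FAD-BIX libraries lay between the FAD libraries.

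**Figure D4:**
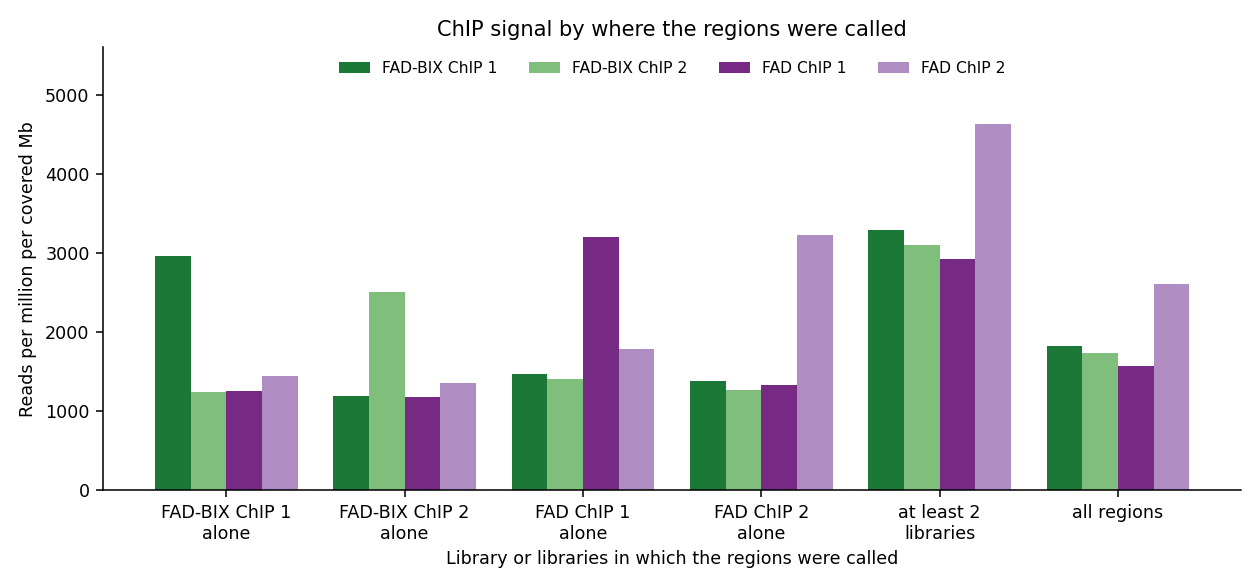
RPM per covered Mb (y axis, from 0) in the 4 ChIP libraries, for regions grouped by the library or libraries that called them (x axis). Bars are single libraries, without error. Each library is highest in the regions that it alone called, and FAD ChIP 2 is highest in regions called in at least 2 libraries.

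Summing over 1 Mb bins raised the median reads per unit to between 195 and 295 and left 0% of 2264 autosomal bins called in either direction with TMM (edgeR, smallest adjusted p = 0.704). At an unadjusted p under 0.05, 77 bins were higher (3.4%) and 79 lower (3.49%) (DESeq2 called 1 bin lower). Both FAD-BIX libraries lay above both FAD libraries in 18.1% of the bins and below them in 19.4%. With library totals 0% of 2266 were called, an unadjusted p under 0.05 was found for 2 higher (0.0883%) and 14 lower bins (0.618%), and the median log2 fold was -0.25. Without FAD ChIP 1, TMM called 2 bins higher (0.0871%) and 0% lower of 2296. Library totals then called 5 higher (0.218%) and 1265 lower (55.1%), at a median of -0.58. TMM removes by construction a shift that most bins share, as here between FAD-BIX and FAD 2.

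The bins with the smallest p among those whose groups stood apart did not pass. On chromosome 2, 141 to 142 Mb, which lies in Macrod2, 47 regions held 32.0 and 29.6 RPM in FAD-BIX ChIP and 21.1 and 28.6 RPM in FAD ChIP, a log2 fold of 0.51 ± 0.13. The other 3 higher bins were chromosome 14, 36 to 37 Mb, chromosome 19, 31 to 32 Mb, which holds regions of Prkg1, and chromosome 12, 14 to 15 Mb, with log2 folds of 0.41, 0.60 and 0.46. The lower bins were chromosome 5, 28 to 29 Mb (-0.80 ± 0.17), chromosome 15, 77 to 78 Mb (-2.33 ± 0.59), chromosome 10, 22 to 23 Mb (-0.47 ± 0.13) and chromosome 1, 165 to 166 Mb (-1.36 ± 0.37). The bin on chromosome 15 holds Mb, with 51 and 37 reads in FAD-BIX ChIP, 387 in FAD ChIP 1 and 108 in FAD ChIP 2. The bin on chromosome 1 holds Adcy10. Without FAD ChIP 1 none of the 8 passed with TMM, and with library totals, where 55.1% of all bins were lower, the 4 lower bins fell (edgeR, adjusted p = 9.926e-07, 0.00789, 3.089e-06 and 0.000845). The 2 bins that rose without FAD ChIP 1 with TMM were chromosome 2, 3 to 4 Mb, and chromosome 11, 34 to 35 Mb, which holds Dock2 (edgeR, adjusted p = 0.000347 and 0.00862). Their log2 folds were 1.87 and 1.30 without FAD ChIP 1 and 0.32 and 0.12 with it. In both, FAD ChIP 1 had more reads (451 and 498) than either FAD-BIX library (265 and 376, and 273 and 386), while FAD ChIP 2 had 128 and 195.

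Across the 19 autosomes the bin medians lay close together within each fit. With TMM they ran from -0.10 on chromosome 7 to 0.03 on chromosome 3, and without FAD ChIP 1 from -0.11 to 0.05. With library totals they lay between -0.35 and -0.21, and without FAD ChIP 1 between -0.69 and -0.53. In that last fit the share of bins called lower ran from 46.3% on chromosome 2 to 61.2% on chromosome 7. Bins of a chromosome are not independent, and these are descriptions with no test.

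**Figure D5:**
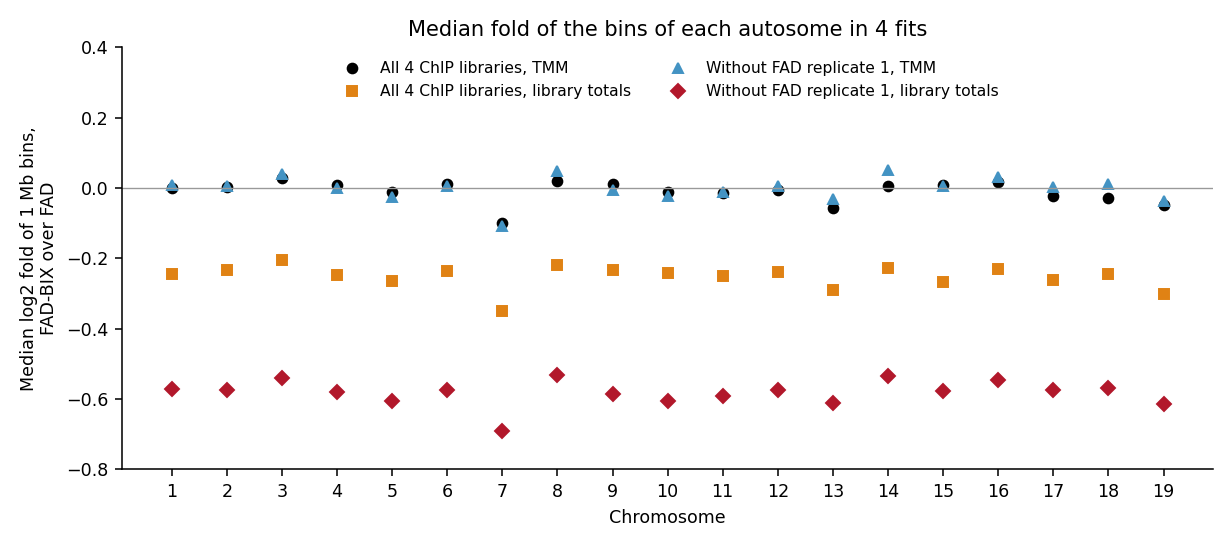
Median log2 fold of FAD-BIX over FAD ChIP over the 1 Mb bins (y axis) of each autosome (x axis) in 4 fits. The fits separate into levels, near 0 with TMM and near -0.25 and -0.58 with library totals, and chromosome 7 is lowest in each.

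Relative to the input of the same mouse, no gene passed with all 4 mice. Of 3694 genes in the test of ChIP over input with library totals, the smallest adjusted p was 1 (edgeR, mouse as a block), the unadjusted p was under 0.05 for 20 higher (0.541%) and 48 lower genes (1.3%), and the median log2 fold was -0.32. The median changed with the mouse left out, at 0.08 without FAD-BIX 1 and -0.67 without FAD-BIX 2, and at -0.85 without FAD 1 and 0.22 without FAD 2. Without FAD 1 the smallest adjusted p was 0.947 (edgeR), and without FAD 2, 5 of 4252 genes passed, 1 higher and 4 lower. With TMM over the 8 libraries 75 were higher (2.03%) and 51 lower (1.38%), at a median of 0.00. Inputs drew a median of 4 to 6 reads per gene, which limits this comparison.

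Mice of a group differed from each other about as much as mice of different groups. Over 4044 genes with TMM, the median absolute log2 difference was 0.51 between the FAD-BIX mice and 0.44 between the FAD mice, and 0.46 to 0.51 between a FAD-BIX and a FAD mouse. Over 2264 bins it was 0.19 within each group and 0.19 to 0.22 between groups. With library totals, the largest median difference of a pair over genes lay within a group, at 0.87 between the FAD mice, against 0.51 between the FAD-BIX mice and 0.49 to 0.79 between groups.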

How the data were processed

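H3K9me2 ChIP-seq and input libraries of 4 mice were used from the authors' joint table of FAD-BIX and FAD. Per the labels' protocols, tissue was fixed for 12 min with 1% formaldehyde and sequenced as 50 bp single-end or 150 bp paired-end reads, without saying which library was which. The submitters' processing notes name MACS2 2.1.0, BWA 0.7.12, Trimmomatic and FastQC, and mm9 as build. Yet 97.7% of 9202 regions matched by symbol overlapped their gene on GRCm38.p6 (RefSeq), so coordinates are given as GRCm38. The sources used here do not say whether they count from 0 or 1. The deposited counts are whole reads per region. The deposited RPM values equal the count plus 1 over the library total, which gave the totals (largest relative deviation 4.70e-06), and RPM in the text were computed from the counts.

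The 44428 rows were reduced to 43680 regions, and counts were summed per gene (overlapping named gene, else the nearest) and per 1 Mb autosomal bin by region centre. Regions were called per library on the same reads that were then compared. The test was the quasi-likelihood test of edgeR 4.0.16 (R 4.3.3) with TMM as main scaling, its default filter on low counts, no block for the replicate number, and Benjamini-Hochberg adjustment at 0.05. ChIP over input used the interaction of library type and group with mouse as a block. The SE of a fold uses spread shared across features. Alternatives were library totals, DESeq2 1.42.0 and its size factors, no filter, a replicate block, each library left out, other sets of regions, other bin sizes, and limma 3.58.1 on ratios to input. Ensembl gene IDs, and library totals without the regions called in FAD ChIP 2 alone, were chosen after seeing the data. The deviations of same-numbered libraries correlated at -0.0438 over genes, which shows no pairing of the mice by number but cannot exclude it. The steps were tested on simulated data. The study's other table was not used here.

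Named genes are, per direction, the 8 of smallest p whose groups stood apart, the 5 with the most reads, 2 with the most reads and 1 with the smallest p in each of 29 lists (of which a selection is printed), and Gria1, Gria2, Grin2a, Grin2b, Ehmt1, Ehmt2 and Thy1, leaving out predicted genes and unplaced contigs. Others were added because a fit called them. The members and the lists were chosen with earlier results of these data known. Intervals and tests cover these mice only. GC content of the bins was not analysed here.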

Additional observations from a re-analysis of the deposited data

How the results depend on the processing

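With all 4 libraries and TMM, 0 genes and 0 bins were called, and the count stayed 0 for genes with DESeq2, its size factors, overlapping regions only, regions called in at least 2 libraries and Ensembl gene IDs, and for bins with the size factors, no filter and bins of 0.5 and 5 Mb. Library totals called 4 genes, no filter on low counts 9 (Mb, Myh6, Actc1, Lpl, Nppa, Cep85l, Hspa1b and Slc25a4 lower, Gm20388 higher), and leaving out the regions called in FAD ChIP 2 alone 6, or 6 with library totals. DESeq2 called 1 bin. With each library left out in turn, under TMM or library totals, 0 to 78 genes and 0 to 1270 bins were called. Without FAD ChIP 2, TMM called Thy1 higher and 21 genes lower, Myh6, Mb, Actc1, Lpl, Nppa and Trpv4 among them. ChIP over input gave 0 to 5 genes with a mouse left out and 0 in its other alternatives. The replicate numbers showed no pairing of the mice, and a replicate block called 7 genes and 0 bins.

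The median log2 fold of the genes was -0.28 with library totals, 0.015 with DESeq2, and 0.029 without the regions called in FAD ChIP 2 alone, or 0.27 with library totals. That of the bins was -0.25 with library totals and 0.26 with library totals and without those regions. With libraries left out the medians ran from -0.62 to 0.25 for genes and from -0.58 to 0.20 for bins. Of 722 log2 folds of 46 named genes under the alternatives 40 reversed, as did 11 of 174 for 10 bins, and the cause was not tested. Sfi1 turned to 0.0019 with the size factors and 0.0067 with DESeq2. Library totals turned Gria1 to -0.084, Grin2a to -0.21 and Grin2b to -0.044. Regions called in at least 2 libraries turned Cntnap2 to -0.15, Grin2a to -0.68, Nlgn1 to -0.41, Cdh7 to -0.020 and the bin at 141 Mb of chromosome 2 to -0.042. Grin2a was at -0.059 with overlapping regions and at -0.25 without the regions called in FAD ChIP 2 alone, or -0.0100 with library totals. The bin at 34 Mb of chromosome 11 was at -0.036 without those regions and at -0.038 in bins of 5 Mb. With each library left out, the log2 folds ran from -0.61 to 8.90 for Thy1, -0.18 to 0.48 for Cntnap2, -0.37 to 0.30 for Gria1, -0.56 to 0.26 for Grin2a, -0.47 to 0.55 for Grin2b, -0.011 to 1.11 for Sema3a, -4.17 to 0.68 for Lpl, -1.40 to 1.33 for Trpv4, -0.59 to 0.094 for Sfi1, -0.54 to 1.95 for Dock2, -0.92 to 0.43 for Ehmt1, -0.053 to 0.75 for Nrxn3, -0.18 to 2.54 for Cldn34d, -0.11 to 0.55 for the bin at 36 Mb of chromosome 14, -0.093 to 0.62 for the bin at 14 Mb of chromosome 12, -0.46 to 1.87 for the bin at 3 Mb of chromosome 2 and -0.56 to 1.30 for the bin at 34 Mb of chromosome 11. A fit with 1 library in a group assumes that it varies like the other group. Bins split by base composition were not run. Depth limits most genes, at a median of 18 to 28 reads per ChIP library.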
